A study of Bos taurus with 8 samples.

Results

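The S100 genes described here code for small calcium-binding proteins, and their probes were followed on arrays of blood neutrophils taken around calving. Members were the non-control array probes whose accession belongs to bovine S100A4, S100A6, S100A8, S100A9, S100A11 or S100A12, which gave 10 of 43653 probes, for 5 of the 12639 genes with a named probe. S100A12 and S100A11 had 3 probes each, S100A4 had 2, S100A8 and S100A9 had 1 each, and no probe could be matched to S100A6. Neutrophils came from jugular vein blood of periparturient female Holstein Friesian cows, with no treatment named, at 14 days before the expected calving date (C-14, 4 arrays) and 7 days after the actual one (C+7, 4 arrays). The series text names 3 cows for these 4 arrays per time, and the animal behind each array is not given. Some arrays of a time may therefore share an animal, so p-values measure the spread between arrays, not between cows. Each time was hybridised and scanned on a slide of its own, so slide and time cannot be told apart in any comparison below.

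S100 proteins bind calcium through paired EF-hand loops, mostly as dimers, and then dock onto target proteins. S100A8 and S100A9 join as calprotectin, one of the most abundant proteins of the neutrophil cytosol, which starves microbes of zinc and manganese. S100A12, also called calgranulin C, is another abundant neutrophil product and a ligand of the receptor AGER (RAGE) once released. S100A4 binds non-muscle myosin in motile cells, S100A6 is known as calcyclin, and S100A11 binds annexin A1. Among bovine genes listed by RefSeq, S100A8, S100A12 and S100A9 are consecutive protein-coding genes, S100A4 lies between S100A3 and S100A5, and S100A11 lies next to S100A10. No sequence of these genes or probes was used here.

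Few probes were detected on these arrays. Between 2201 and 4486 probes were well above background on each of 6 arrays, but 761 on C-14 replicate 4 and 387 on C+7 replicate 4. These 6 arrays, replicates 1 to 3 of each time, are called the brighter arrays. Detection also depended on where a probe lay. In the first and last bands of 38 rows, 9.82% to 26.8% of probes were well above background on the brighter arrays, against 1.17% to 2.41% in the middle 2 bands. The same probe could be read at several rows, because 50 probes were spotted 4 times each. For 39 pairs of such a probe and a brighter array, a spot in the outermost 100 rows at either end was well above background, and in 1 of the 39 a spot of the same probe between rows 200 and 400 was as well. The ribosomal protein probe of RPL32 gave a background-subtracted intensity of 2130 at row 32 of C-14 replicate 3 and 8.62 at row 261 of the same array. A dim S100 probe in the middle rows is thus no measure of a low transcript level.

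**Figure D1:**
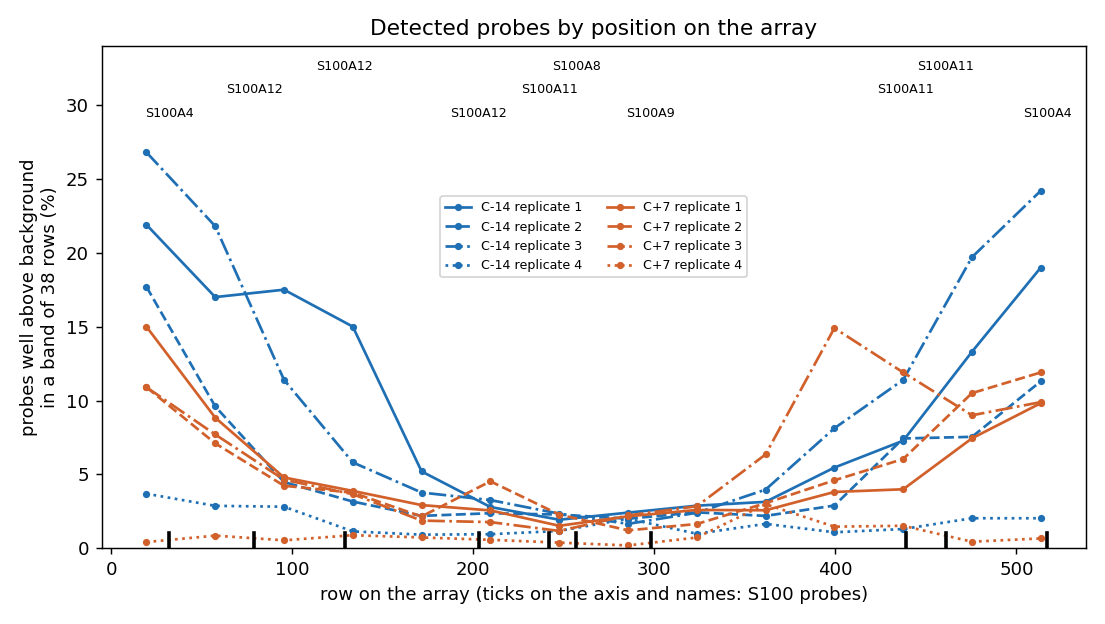
Share of probes well above background (%) in 14 bands of rows from the first to the last of 532 rows, a line for each array (blue C-14, orange C+7), with the rows of the 10 S100 probes marked. Shares on the brighter arrays fall from 9.82% to 26.8% in the end bands to 1.17% to 2.41% in the middle 2, where the S100A8 and S100A9 probes and 1 S100A11 probe lie.

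The 10 probes fell on very different rows. The S100A4 probes A_73_118905 and A_73_P092371 lay at rows 32 and 517, near opposite ends of the array. The S100A12 probes A_73_P050466, A_73_P247181 and A_73_115208 lay at rows 79, 129 and 203. The S100A11 probes A_73_P435331, A_73_P105761 and A_73_P040776 lay at rows 242, 439 and 461. The single S100A8 probe, A_73_109977, lay at row 257, and the single S100A9 probe, A_73_110650, at row 298. Within 40 rows of the S100A9 probe 1.35% to 2.48% of all probes were well above background on the brighter arrays, against 9.05% to 24.6% around the S100A4 probe at row 32. No member was saturated and none of its spots was flagged as an outlier. Levels of the S100 genes were therefore not ranked against each other. Changes are read for each probe across arrays, and where probes are set side by side within an array, how that gap varies across arrays is what is described.

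**Figure D2:**
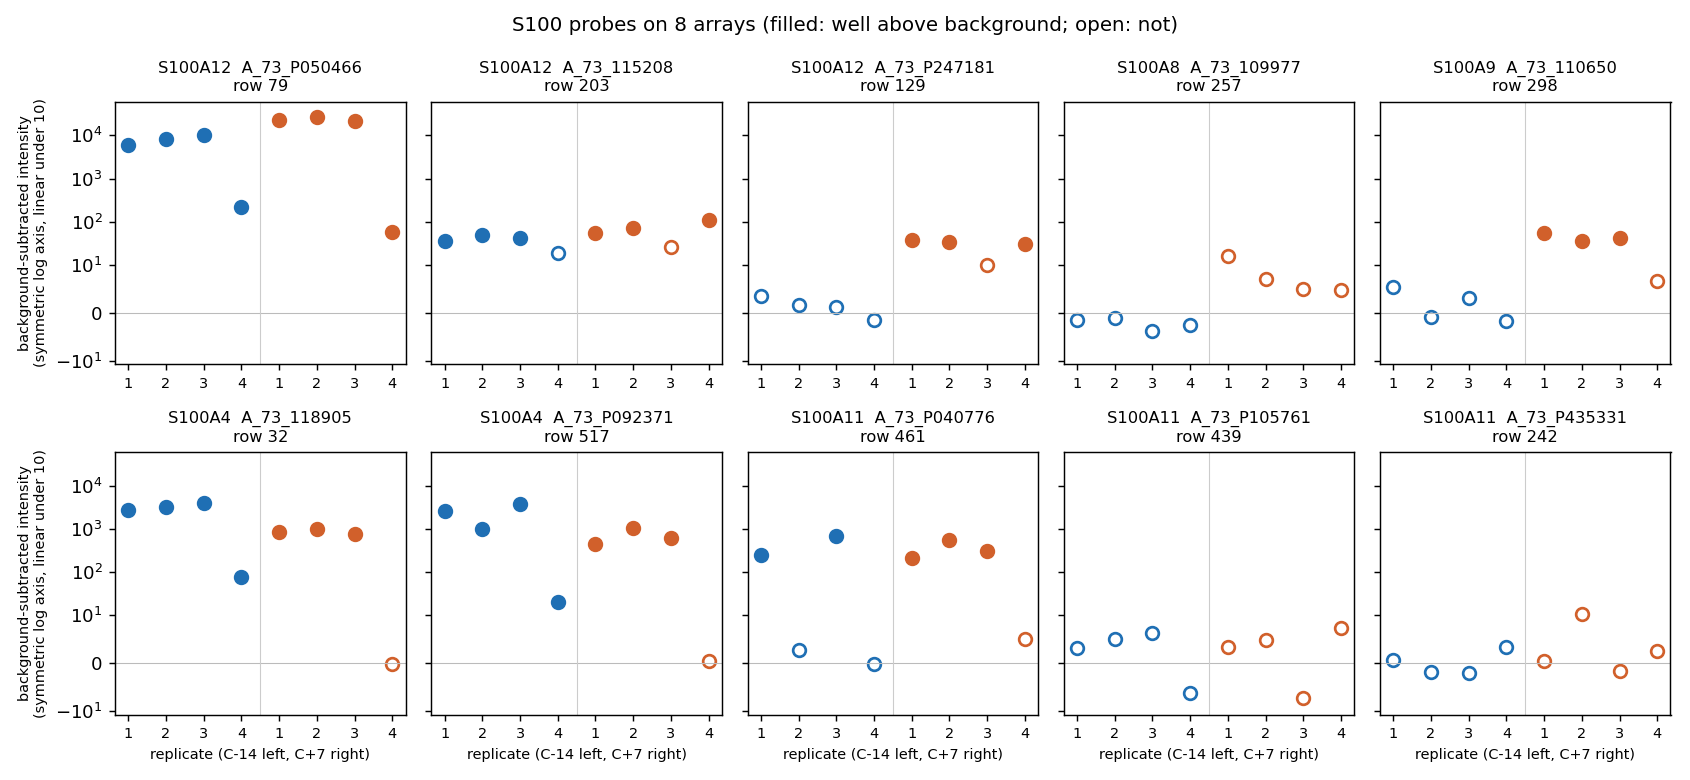
Background-subtracted intensity of each S100 probe (symmetric log axis, linear under 10) on the 4 C-14 arrays (blue) and the 4 C+7 arrays (orange), in replicate order, filled where well above background. The S100A12 probe at row 79 rises from 6123 to 9944 on C-14 replicates 1 to 3 to 21262 to 26764 on C+7 replicates 1 to 3, while the S100A4 probe at row 32 goes from 2729 to 4087 down to 778 to 1024.

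S100A12 had the higher signal at C+7 on the brighter arrays and was the only S100 gene past the test there. Its probe at row 79 was the single member well above background on all 8 arrays. Its background-subtracted intensity was 6123, 8261, 9944 and 223 on C-14 replicates 1 to 4. After calving it was 23321, 26764, 21262 and 58.3 on C+7 replicates 1 to 4. The 3 brighter C+7 arrays all lay above the 4 C-14 arrays, and a separation of the brighter arrays in this direction was found in 11% of the 2225 probes tested on them (15% lower, 26% either way). Replicate 4 of each time was far dimmer than its group. After scaling, the mean log2 intensity was 3.95 ± 0.57 before calving and 6.24 ± 0.16 after it (SD, n = 3 arrays each). The difference was 2.29 (SE 0.32), with an adjusted p of 0.0277 by limma with Benjamini-Hochberg adjustment over 2225 probes.

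Among the 10 S100 probes 6 could be tested on the brighter arrays, which required a call well above background on all 3 arrays of a time, and 1 was called higher and none lower. Of all 2225 probes tested there, 1.84% were called higher, 3.19% lower and 5.03% in either direction. The S100A12 call rested on every array but C-14 replicate 2. Its difference stayed between 2.01 and 2.55 when an array was left out, and the adjusted p rose to 0.0534 without C-14 replicate 1, 0.0927 without C-14 replicate 3, and 0.0913, 0.122 and 0.0930 without C+7 replicates 1, 2 and 3. With C-14 replicate 4 added, the difference was 2.71 and the adjusted p 0.0768. The call was also lost with processed signal (2.46, adjusted p = 0.146), with scaling over all probes (1.66, adjusted p = 0.0603), with no filter (adjusted p = 0.377) and in the series matrix (3.45, adjusted p = 0.958). With scaling by the probes within 40 rows of S100A12, an alternative chosen after seeing the data, it was 2.37 (SE 0.31), adjusted p = 0.0140.

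Over all 8 arrays no S100 probe passed. There the processed signal was used, and 3 members were tested, the S100A12 probe at row 79 and both S100A4 probes. By limma 0 of 475 probes passed (0% called), 7 had an unadjusted p under 0.05, and none of these was an S100 probe. Scaled log2 processed intensity of S100A12 was 2.46, 4.48, 0.93 and 0.95 on C-14 replicates 1 to 4. It was 5.07, 5.40, 5.54 and -0.26 on C+7 replicates 1 to 4, so that the times overlapped through C+7 replicate 4 alone. C-14 replicate 3 was the only array with a surface correction by the extraction software. The processed intensity of S100A12 there was 5656, against 9944 after background subtraction alone, so its 0.93 does not mark a dim array. None of the 3 tested S100 probes separated all 8 arrays by time, against 1.05% of the 475 probes (0.842% higher, 0.211% lower). The difference of means was 1.73 (SE 1.24, adjusted p = 0.983), with p = 0.400 in a two-sided exact permutation test whose smallest possible p is 0.0286. Without C+7 replicate 4 the difference was 2.83 with an exact permutation p of 0.0286, the smallest that 4 against 3 arrays allow. That permutation test was not planned, and its p restates the lack of overlap once the overlapping array is dropped. By limma without that array S100A12 did not pass (adjusted p = 0.163), and 1 of 1555 probes did. With array weights estimated by limma S100A12 was at 3.09 (adjusted p = 0.00036), when 15 of 475 probes passed.

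The other S100A12 probes carry the same accession and lie nearer to the middle rows. The probe at row 129 read 3.50, 1.66, 1.28 and -1.48 on C-14 replicates 1 to 4. It read 37.7, 34.5, 10.0 and 30.8 on C+7 replicates 1 to 4. All 4 arrays after calving lay above all 4 before it, and 3 of them were well above background. Such a separation was found in 1.46% of 43519 probes in the unscaled background-subtracted signal, and in 3.24% of the 6737 probes within 40 rows of this one. Set against the lowest signal well above background on each C-14 array, this probe was 1.83-fold higher on the mean of the brighter C+7 arrays. That mean holds the reading of C+7 replicate 3, not well above background, so the fold is no strict lower bound. Over 8 arrays with processed intensity the fold was 1.46. This probe did not enter the limma fits, since no time had it well above background on every array. Without C+7 replicate 3 it entered and did not pass, at 0.60 (adjusted p = 0.328) on the brighter arrays and 2.84 (adjusted p = 0.999) with both dim arrays included, nor did it pass with no filter (0.27, adjusted p = 0.377, and 2.28, adjusted p = 1).

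The S100A12 probe at row 203 did not separate the times. It read 36.4, 49.1, 41.9 and 18.7 on C-14 replicates 1 to 4, and 55.2, 72.7, 25.6 and 108 on C+7 replicates 1 to 4. The difference on the brighter arrays was 0.57 (SE 0.43, adjusted p = 0.520). On C-14 replicate 3, where the extraction software had applied a surface correction, the processed intensity of this spot was 6518 against 41.9 after background subtraction alone. With processed signal the difference for this probe was -1.66.

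S100A9 and S100A8, the calprotectin genes, were dim on every array, and S100A9 was well above background on C+7 arrays alone. S100A9 read 5.46, -0.84, 3.12 and -1.75 on C-14 replicates 1 to 4, none well above background. It read 55.8, 36.5, 42.3 and 6.67 on C+7 replicates 1 to 4, with the first 3 well above background. The times did not overlap, and the lowest C+7 value was close to the highest C-14 value. The same separation held for 1.46% of 43519 probes over the whole array, and for 0.536% of the 6713 probes within 40 rows of S100A9. Measured from the lowest signal well above background on each C-14 array, S100A9 was at least 3.43-fold higher on the brighter C+7 arrays. This bound was taken on scaled intensity and depends on the scaling. Over 8 arrays with processed intensity this fold was 2.4, with C+7 replicate 4 not well above background. In the limma fit, where all C-14 values sat at the common floor, the difference was 0.71 (SE 0.28, adjusted p = 0.242) and did not pass. With a floor 1 log2 unit lower it was 1.71 (adjusted p = 0.0433), and with C-14 replicate 4 added, which raises the floor, it was 0. S100A9 entered the test through its C+7 arrays alone, so its difference could not be negative there.

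S100A8 stayed below the detection call everywhere. It read -1.47, -1.18, -3.72 and -2.59 on C-14 replicates 1 to 4 and 15.7, 6.93, 4.91 and 4.65 on C+7 replicates 1 to 4. All C-14 values lay under 0 and all C+7 values over 0. Of the 6716 probes within 40 rows, 1.13% had all C+7 values above all C-14 values, whatever their sign. The lowest signal well above background was 16.8 to 27.2 on the brighter arrays, above all S100A8 readings. No fold is given for S100A8, since neither time had a measured level. In all, 3 of the 10 S100 probes, those of S100A8, S100A9 and S100A12 at row 129, lay higher on all C+7 arrays than on all C-14 arrays and none lay lower, against 1.46% and 1.31% of all probes. These readings were unscaled and the S100A8 probe was detected on no array, so nothing is read from the count.

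S100A4 was lower after calving in value on both of its probes, without passing the test. The probe at row 32 read 2729, 3311, 4087 and 77.5 on C-14 replicates 1 to 4. It read 844, 1024, 778 and -0.046 on C+7 replicates 1 to 4, the last not well above background. On the brighter arrays the times did not overlap, as for 28% of the 1091 probes well above background on all 6 (9.99% higher, 18.1% lower). The scaled mean log2 intensity was 2.70 ± 0.51 before and 1.49 ± 0.15 after calving (SD, n = 3 each), a difference of -1.21 (SE 0.29, adjusted p = 0.0851 by limma). The difference was -1.85 (adjusted p = 0.0447) with scaling over all probes and -1.05 (adjusted p = 0.0431) with array weights, and -0.90 (adjusted p = 0.117) with scaling within 40 rows.

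The S100A4 probe at row 517 read 2603, 1016, 3744 and 20.2 on C-14 replicates 1 to 4. It read 447, 1087, 632 and 0.437 on C+7 replicates 1 to 4. Its difference was -0.95 (SE 0.32, adjusted p = 0.188), and unscaled values overlapped, as C+7 replicate 2 lay above C-14 replicate 2. The S100A4 probes differed from each other most on C-14 replicates 2 and 4, by 1.70 and 1.94 on the log2 scale, against 0.07 and 0.13 on C-14 replicates 1 and 3. Of the probes near row 517 that were well above background on at least 4 of the other 5 brighter arrays, 52 of 69 were also well above background on C-14 replicate 2 and 54 of 72 on C+7 replicate 1, against 60 of 60 on C-14 replicate 3. The part of this local dimming in the S100A4 value was not tested. Over 8 arrays the S100A4 differences were -1.22 (SE 1.22) at row 32 and -0.54 (SE 1.21) at row 517, both with adjusted p = 0.983. These used the processed signal, which after the surface correction of C-14 replicate 3 was 1161 at row 32 and 1047 at row 517. Background subtraction alone gave 4087 and 3744 on that array.

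S100A12 and S100A4 could also be set against each other within an array, which removes a scaling factor common to an array. The size of that gap says nothing of their relative amounts, since probes differ in brightness, and its change across arrays holds both the difference between the changes of the genes and any change in how their rows were read. Shares of probes well above background were read in the band of rows holding each probe. Around S100A4 at row 32 they were 21.9%, 17.7% and 26.8% on C-14 replicates 1 to 3. On C+7 replicates 1 to 3 they were 15%, 10.9% and 10.9%. Around S100A12 at row 79 they were 17.5%, 4.48% and 11.4% on the C-14 arrays, and 4.79%, 4.23% and 4.64% on the C+7 arrays. The part of such local differences in the gap was not tested. Between S100A12 at row 79 and S100A4 at row 32 the log2 gap in background-subtracted intensity was 1.17, 1.32, 1.28 and 1.52 on C-14 replicates 1 to 4. On C+7 replicates 1 to 3 it was 4.79, 4.71 and 4.77, while on C+7 replicate 4 S100A4 was not above background. The gap was 1.32 ± 0.15 before calving (SD, n = 4) and 4.76 ± 0.04 after it (SD, n = 3). The intensity ratio was thus 2.24 to 2.87 on every C-14 array, the dim replicate 4 included, and 26.1 to 27.6 on these C+7 arrays. With S100A4 at row 517 the gap was wider spread, 2.28 ± 1.13 before and 5.13 ± 0.54 after, and the times again did not overlap (1.23 to 3.46 against 4.62 to 5.70). In the processed signal of C-14 replicate 3 the first gap was 2.28 in place of 1.28. No p is given for these gaps, because the pair was picked with its values known. On the brighter arrays the pair sets a probe with a higher mean after calving against probes with a lower one. The share of other probe pairs whose gaps separate the times was not computed, so nothing is read from the lack of overlap.

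**Figure D3:**
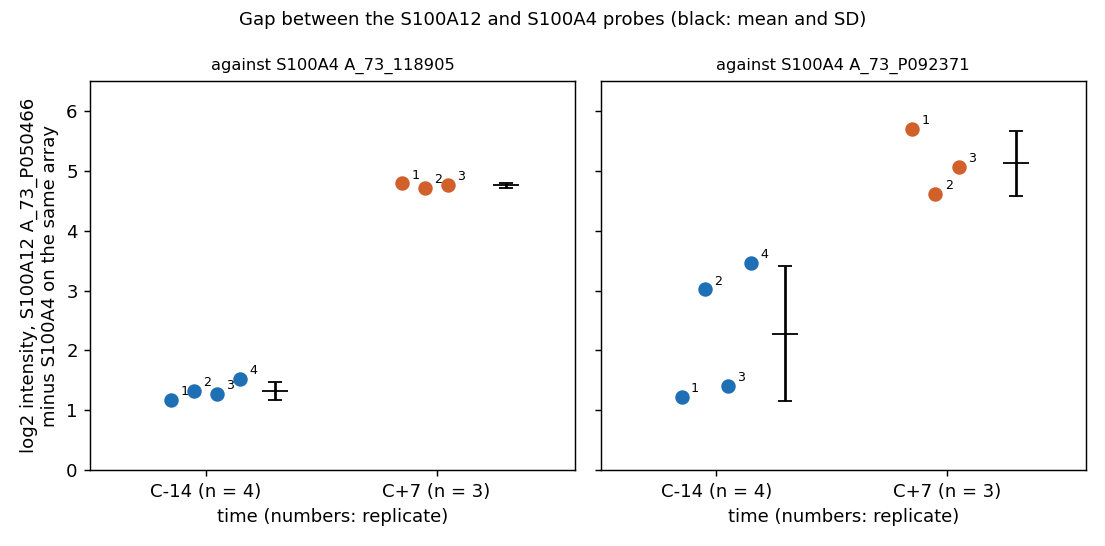
Log2 intensity of S100A12 at row 79 minus that of S100A4 on the same array, for the S100A4 probe at row 32 (left) and at row 517 (right), with numbered replicates and the mean and SD in black. On the left the 4 C-14 arrays lie at 1.17 to 1.52 and the 3 C+7 arrays at 4.71 to 4.79, and C+7 replicate 4 is not shown because S100A4 was not well above background there.

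S100A11 gave no clear difference. Its probe at row 461 read 256, 2.67, 688 and -0.097 on C-14 replicates 1 to 4, and 214, 551, 303 and 5.12 on C+7 replicates 1 to 4. It was well above background on 2 C-14 and 3 C+7 arrays. The difference on the brighter arrays was 1.64 (SE 0.94, adjusted p = 0.384), and without C-14 replicate 2, which alone lay at the floor, it was 0.60 (adjusted p = 0.555). On C-14 replicate 2 only 11 of 33 nearby probes detected on at least 4 of the other brighter arrays were well above background, against 26 of 28 on C-14 replicate 1 and 22 of 33 on C+7 replicate 3. The other S100A11 probes were well above background nowhere, with readings from -7.31 to 7.31 at row 439 and from -1.95 to 10.9 at row 242.

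**Figure D4:**
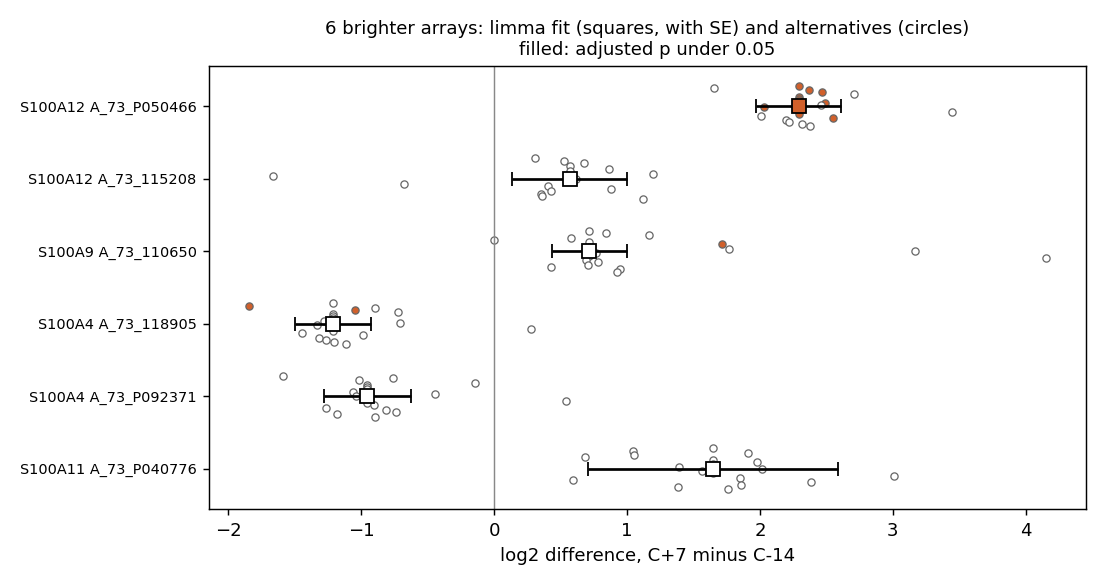
Log2 difference (C+7 minus C-14) of the 6 tested S100 probes on the brighter arrays in the limma fit (squares, bars are the SE) and under each alternative (circles), filled where the adjusted p is under 0.05. S100A12 at row 79 stays between 1.66 and 3.45, while S100A4 at row 32 runs from -1.85 to 0.28 and S100A12 at row 203 from -1.66 to 1.19.

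The scaling moved all probes together, so S100 differences were also read against the median of all probes tested. That median was -0.05 in the fit of the brighter arrays, 0.69 with normexp background correction, -0.58 with scaling over all probes and 1.03 in the series matrix. Relative to it, S100A12 at row 79 was at 2.34, 1.80, 2.23 and 2.42 in turn. S100A4 at row 32 was at -1.16, -1.97, -1.27 and -0.75, and at row 517 at -0.90, -1.75, -1.01 and -0.48. S100A9 was at 0.77, 1.08, 1.42 and 3.13.

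Markers of several cell types moved on the same arrays. Monocytes express S100A8, S100A9, S100A12 and S100A4, and T cells express S100A4. Summed scaled intensity of the 17 T cell marker probes was 5.23 to 7.02 on the brighter C-14 arrays and 1.40 to 1.68 on the C+7 arrays. T cell markers CD28, CD3D and TRAT1 were not well above background on any of them, and 3 of the 4 tested T cell probes were called lower, beside 3.19% of all probes. The called probes were both CD247 probes (-2.77 and -2.64) and the CD3E probe. The CD3E probe entered the test through its C-14 arrays alone and could not come out higher. The CD4 probe, well above background on all 6 arrays, was at -0.11 (SE 0.83) and did not pass. For the 13 monocyte and macrophage probes the sum was 3.49 to 5.19 before and 2.90 to 3.13 after calving. CCR2, CD163, CD68, FCGR1A and VCAN were not well above background. CSF1R was called lower (-1.62, SE 0.26), while LYZ, the other tested probe, was at -0.35 (SE 0.17) and did not pass. For the 25 neutrophil probes the sum was 5.85 to 6.89 before and 7.60 to 9.46 after. MPO and PTAFR were not well above background. Of 9 tested neutrophil probes 2 were called higher and 0 lower, beside 1.84% and 3.19% of all probes. Both, of MMP9 and ALPL, sat at the floor on the brighter C-14 arrays and could not come out lower. CXCR1 was at -1.25 (SE 0.25), CXCR2 at -0.06, TREM1 at 1.55 and PADI4 at 0.56, none passing. The ITGB2 probes were at 1.17, -0.11 and -0.21. For 3 eosinophil probes the sum went from 1.03 to 1.37 down to 0.139 to 0.161. ALOX15 was called lower (-3.02), and CCR3 was not well above background. For 9 natural killer cell probes the sum went from 0.342 to 0.540 down to 0.143 to 0.204. GNLY among them was called lower (-1.67), but sat at the floor on the brighter C+7 arrays and could not come out higher. NKG7 was at -0.56 and did not pass, and GZMB, KLRD1, NCR1 and PRF1 were not well above background. For 5 erythroid probes the sum went from 0.377 to 1.27 up to 1.25 to 2.58. None of these was called, and ALAS2 was not well above background. The part of these shifts in the S100 values was not tested. In such bulk samples fewer cells of a type and less RNA per cell cannot be told apart.

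Few other genes of the S100 system could be measured. Of 29 probes for 14 other S100 and EF-hand genes 2 were tested and none passed, S100A5 among them at -0.46 (SE 0.33). Of 21 probes for receptors and adaptors 2 were tested and none passed, LY96, the partner of TLR4, at -0.18 and the adaptor MYD88 at -0.92. Among 35 probes for binding partners 7 were tested and 1 was called higher, ANXA5, which codes for a phospholipid-binding annexin (1.32, SE 0.22, adjusted p = 0.0408), whose C-14 values all sat at the floor, with 0.07 on its other probe. ANXA1, the partner of S100A11, was at 0.17 (SE 0.53), and ANXA11, a partner of S100A6, at 0.61 and 0.11 on its probes. NCF1, an NADPH oxidase subunit, was the single oxidase probe tested of 11 and stood at 0.40 (SE 0.45). Of 22 probes for granule proteins 7 were tested and 5 were called higher, beside 1.84% of all probes. HP was at 3.53 and LTF at 3.37. All 5 of these probes, of HP, LTF, PGLYRP1 and MMP9, sat at the floor on the brighter C-14 arrays and entered the test through their C+7 arrays alone, so none of them could come out lower and nothing is read from the count. Medians of the tested probes were -0.55 for receptors and adaptors, 0.11 for binding partners and 0.40 for the oxidase, beside -0.05 over all probes tested.

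By Pearson correlation over the 6 brighter arrays, among 801 probes of named genes well above background on all of them, the patterns most like S100A12 at row 79 were those of ASIP (0.997), LOC781977 (0.991) and AP1S1 (0.977). For S100A4 at row 32 they were EEF1A1 (0.988), EMP3 (0.985) and CSF1R (0.984), and for S100A4 at row 517 TMEM140 (0.975), DDX6 (0.946) and SSLP1 (0.945). These values describe 6 arrays that share their slides and scaling, and such a search over 801 probes returns high values by its construction.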

How the data were processed

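Cy3-labelled RNA was hybridised to single-colour Agilent bovine arrays. The deposited scanner files hold intensity values written by Agilent Feature Extraction (10.10.1.1 with protocol GE1_1010_Sep10 per the file headers, 9.1 per the submitters' processing notes). The deposited series matrix holds log2 values, whose differences between arrays matched the processed intensity (lowest correlation 0.9999), with each probe centred on its median over the arrays. Its column medians were -0.128, -0.0289, -2.61 and 0.0264 for C-14 and 0.0289, 0.0289, -0.0629 and 0.0153 for C+7.

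Control spots and outlier spots were left out, and spots of a probe were averaged. Accessions were named through RefSeq (ARS-UCD2.0, names only), which gave 1 symbol to 26832 probes and none to 16821. Each probe was tested on its own where every array of a time called it well above background. Over 8 arrays, log2 processed intensity was scaled by the 75th percentile of 115 probes well above background on all 8. Over the 6 brighter arrays (over 2000 probes detected), background-subtracted intensity was scaled over 1091 such probes and raised to a floor of -3.54 (log2), below which at least 1 array made no detection call. Fits used limma 3.58.1 in R 4.3.3, two-sided, with Benjamini-Hochberg adjustment and a threshold of 0.05, and were tested on simulated data. The files lack the mean signal, so normexp (offset 50) used the median signal. Folds from a detection limit were taken on scaled intensity. They set the brighter mean against each dimmer array's limit, or the probe's reading if higher. They were taken only for probes detected at a single time, so their direction was fixed by that choice. Named genes are all S100 probes, members of the lists that were tested and named by role, and the 3 best correlated genes. The S100 genes, the lists and the choice of the 6 arrays were made with earlier results of these data known. Scaling within 40 rows was chosen after seeing the data. The number of arrays limits the precision. One gene of the EF-hand list is not reported here.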

Additional observations from a re-analysis of the deposited data

Results flagged for a closer look

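In the C+7 group, replicate 4 stood far from the other 3 arrays for 2 S100 probes. S100A12 at row 79 was at -0.261 there as scaled log2 processed intensity, while the other 3 C+7 arrays lay between 5.07 and 5.54. S100A4 at row 32 was at -4.10, a spot not well above background, while the other 3 lay between 0.28 and 0.76. On that array 387 probes were well above background. Of 18 groups of 4 arrays examined for S100 probes these 2 stood out, and chance alone sets apart about 1 in 20 such groups.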

How the results depend on the processing

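Over 8 arrays the count of S100 probes past the threshold was 0, and it was 0 under every alternative run except array weights (1, S100A12). Leaving out an array gave 0 throughout. The S100A12 value on 8 arrays ranged from 1.18 to 2.83 with an array left out, where the exact permutation p fell under 0.05 without C+7 replicate 4 alone, and was 0.986 with background-subtracted signal. On the brighter arrays the count was 1 (S100A12). It was 0 with no filter, in the series matrix, with processed signal and with C-14 replicate 4 added, 2 with array weights (S100A12 and S100A4), 2 with the lower floor (S100A12 and S100A9), and 0 to 1 with an array left out. With scaling over all probes it was 1, but the probe was S100A4, lower, and S100A12 was at 1.66 (adjusted p = 0.0603). Signs turned for S100A12 at row 203 with processed signal (-1.664) and in the series matrix (-0.677), and for S100A4 in the series matrix (0.279 at row 32 and 0.543 at row 517). Over 8 arrays the S100A4 probe at row 517 turned with array weights (0.369), and with an array left out it ranged from -1.207 to 0.238, above 0 without C-14 replicate 2 (0.046) or C+7 replicate 4 (0.238). The cause was not tested. All other values kept their sign or were 0.

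Times share replicate numbers, but the labels do not say that these pair the arrays. Correlations of same-numbered deviations were 0.0574, -0.255 and 0.256 on the brighter arrays and 0.584, 0.219, -0.256 and 0.488 over 8. So few arrays cannot settle whether the numbers pair them. With a replicate block 0 S100 probes passed on the brighter arrays (S100A12 at 2.29, adjusted p = 0.122), 0 over 8 arrays, and 0 of 2225 probes in all. The count of all probes called, 112, ranged from 0 (replicate block) to 167 (without C-14 replicate 2), with 73 by normexp, 61 with trend and robust, 50 with detection on all arrays, 12 with processed signal, 12 with C-14 replicate 4 added, 5 in the series matrix, 1 with no filter, and 4 and 7 without C+7 replicates 3 and 2. It was 41 higher and 71 lower here, 69 and 4 with normexp and 15 and 99 with scaling over all probes. Over 8 arrays it was 0, and among the alternatives it was 15 with array weights, 1 with no filter, 1 without C+7 replicate 4, and 0 in the others.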
